A study of Homo sapiens with 24 samples.

Results

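SK-HEP1 is a human cell line that the labels call HCC, hepatocellular carcinoma. It contributed 4 of the 24 libraries of the series, and these 4 were taken by the cell line named in their labels. They were siCTL without TGF-beta, siCTL with TGF-beta, siSFPQ without TGF-beta and siSFPQ with TGF-beta, 1 library each. The siCTL libraries carry a control siRNA (genotype label wt) and the siSFPQ libraries an siRNA against SFPQ (genotype label SFPQ KD). TGF-beta was given at 2 ng per ml for 24 hours, and all cells grew in DMEM with 10% serum. The series holds the same 4 conditions in 5 other lines, Hep3b, Huh1, Huh7, HepG2 and HLE. Polyadenylated RNA was sequenced, and the values are FPKM, a level corrected for transcript length and for the number of mapped fragments.

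SFPQ is a nuclear RNA-binding protein of the DBHS family. It takes part in splicing and transcription, is a building block of paraspeckles, and supports the expression of long genes. TGF-beta is a secreted factor that binds type II and type I receptors, which phosphorylate SMAD2 and SMAD3. These join SMAD4 and enter the nucleus, where they induce genes of the extracellular matrix and of feedback inhibition. In epithelial cells TGF-beta is known both for halting division and for promoting a mesenchymal state.

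The knockdown was measured as siSFPQ against siCTL in 2 pairs, 1 without and 1 with TGF-beta, and TGF-beta as treated against untreated in 2 pairs, 1 per siRNA. The 2 comparisons share libraries, so no overlap or correlation between them was computed. Nothing in the labels names separate cultures or a second siRNA, so a p-value measures the spread between the 2 pairs of 1 line, which may be technical. Changes are log2 differences of FPKM + 1, which understate the change of low genes, and a gene passed at a limma adjusted p under 0.05.

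The SK-HEP1 libraries resembled each other by siRNA. Over 9567 genes expressed in all lines, Pearson's r of log2 levels was 0.9914 to 0.9946 within an siRNA and 0.9351 to 0.9438 across siRNAs, a description over genes. The closest library of any other line, from HLE, had an r of 0.9231. Depth, estimated from the steps between low values, was 0.663 to 1.32 times that of the median library of the series, lowest in siCTL with TGF-beta.

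Markers of hepatocytes were nearly absent from SK-HEP1. Of 30 hepatocyte genes, 18 were under 1 FPKM in all 4 libraries. ALB, which encodes albumin, ranged from 0.633 to 0.803 FPKM, HNF4A, a hepatocyte transcription factor, from 0.0861 to 0.230 FPKM, and TTR was listed at 0. The summed level of the list in siCTL cells was 30.8 FPKM, against 38.4 FPKM in HLE and 716 to 22577 FPKM in the other 4 lines. A low sum was thus shared with HLE and not particular to SK-HEP1. The epithelial genes CDH1 and EPCAM reached at most 0.131 and 0.228 FPKM, whereas the keratin gene KRT18 reached 519 to 655 FPKM and the mesenchymal gene VIM, which encodes vimentin, 1984 to 2646 FPKM. These markers neither bear out nor contradict the HCC label of SK-HEP1, and it is called by its name only. Endothelial markers were not generally present either: PECAM1, CDH5, VWF and KDR reached at most 0.193, 0.363, 0.0600 and 0.0443 FPKM, and 20 of 25 endothelial genes were under 1 FPKM in all 4. MCAM and ENG were the abundant ones of that list. The summed endothelial list was 89.5 and 92.4 FPKM in the siCTL libraries and 182 and 239 FPKM in the siSFPQ libraries, and its part in the knockdown results was not tested. Of 19 stellate and fibroblast genes, 13 were under 1 FPKM in all 4. Their sum in siCTL cells was 163 FPKM, against 75.0 to 160 FPKM in the other lines. The immune marker PTPRC was listed at 0.

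SFPQ itself fell strongly. It stood at 185 FPKM in siCTL and 172 FPKM in siCTL with TGF-beta, against 24.3 and 28.2 FPKM in the siSFPQ libraries. The 2 groups were far apart, and 13.1% and 16.4% of the transcript level was left. The change was -2.72 (SE 0.09, adjusted p = 1.67e-05). In the other lines 9.49% to 45.2% was left, and of those HLE kept less than SK-HEP1, so the depth of knockdown differed between the lines that are compared here.

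More genes passed for the knockdown in SK-HEP1 than in any other line, each fitted on its own 4 libraries. Of 11428 genes tested in SK-HEP1, 2549 were higher (22.3%) and 5236 lower (45.8%), 68.1% in all, against 16.6% in Huh1 to 44.6% in HLE. The gene-wise changes of the SK-HEP1 pairs without and with TGF-beta correlated at 0.943 across genes, which are not independent, above the 0.734 to 0.884 of the other lines. The size of the changes was more alike: their SD over genes was 0.63 and 0.65 in SK-HEP1, 0.60 and 0.64 in HLE, and 0.27 to 0.44 in the others. A change of at least 1 in both pairs, on the log2 scale, was found upward for 215 genes (1.88%) and downward for 944 genes (8.26%).

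The balance between rises and falls in SK-HEP1 depends on scaling. The median change over all tested genes was -0.18, so a gene lower by that amount followed the bulk. With libraries scaled to a common median ratio, 3999 genes were higher and 3597 lower, and with each library's trend with GC content removed, 4153 were higher and 3511 lower. In what follows, rose and fell are used for genes that passed in the same direction under all 3 of these scalings. For the knockdown that was 2537 rises (22.2%) and 3246 falls (28.4%). These shares are the background for the knockdown rises and falls of every gene group below. With 1 library left out the 4-library fit has no residual degree of freedom, so that check was made in the fit of all 24 libraries: 7402 genes passed there with all SK-HEP1 libraries and 5157 to 5395 with 1 left out.

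**Figure D1:**
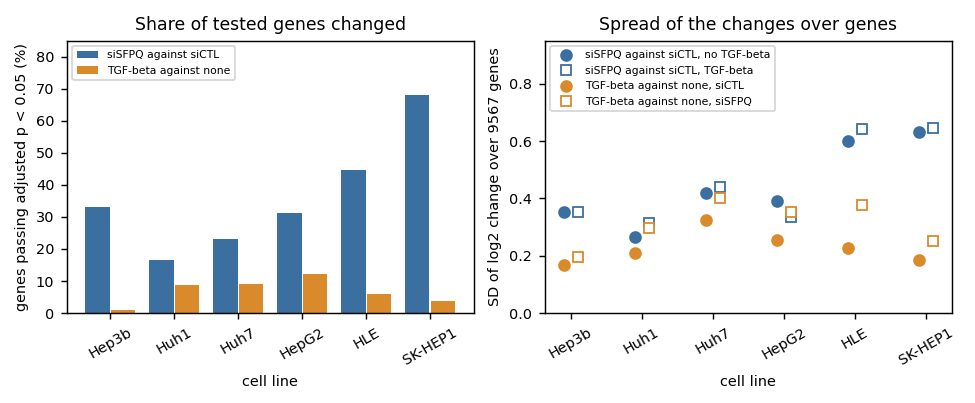
The left panel gives, by cell line, the percentage of tested genes that passed an adjusted p of 0.05 for the knockdown (blue) and for TGF-beta (orange), each line fitted on its own 4 libraries. The right panel gives the SD of the log2 changes over 9567 genes, with 1 point per pair of libraries. SK-HEP1 had the highest share for the knockdown, 68.1%, and 3.90% for TGF-beta, and its knockdown spread lay beside that of HLE.

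The deepest fall with SFPQ knockdown was that of STMN1, which encodes stathmin, a protein that destabilises microtubules. STMN1 stood at 504 and 445 FPKM in the siCTL libraries without and with TGF-beta and at 27.9 and 23.9 FPKM in the siSFPQ libraries. Both siSFPQ values lay far under both siCTL values, a change of -4.14 (SE 0.05, adjusted p = 2.39e-06). PTGES3, which encodes the HSP90 co-chaperone p23, went from 252 and 248 FPKM to 18.3 and 19.1 FPKM, a change of -3.67 (SE 0.06). CENPB, a protein of centromeric DNA, went from 82.9 and 84.7 FPKM to 9.71 and 9.39 FPKM, a change of -3.01 (SE 0.06). In each of the 3 genes both siSFPQ libraries were low whether or not TGF-beta was given. RTN3, which shapes the endoplasmic reticulum, fell by 2.99 and DAP, a death-associated protein, by 2.98. WNT5B, a Wnt ligand, fell by 3.17, from 182 and 215 FPKM to 16.0 and 27.8 FPKM. The kinase gene UHMK1 fell by 3.03. CMC1 and MNF1, which serve the assembly of respiratory chain complexes, fell by 3.09 and 2.88, and FILIP1, a filamin-interacting protein, fell by 2.93.

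FILIP1 is a gene that SK-HEP1 expressed and the other lines hardly did. It was at 17.96 and 16.7 FPKM in the SK-HEP1 siCTL libraries, at 1.33 and 1.48 FPKM with siSFPQ, and at most 0.32 FPKM in siCTL cells of the other lines. Elsewhere it was therefore too low for a fall to be measured.

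Genes of mitosis fell together. Of 37 G2/M genes, all 37 were tested, 36 fell and none rose, with a median change of -0.99, against 28.4% falls and a median of -0.18 over all genes. The exception was CDC25B, a phosphatase that activates CDK1, at 120 and 101 FPKM in siCTL cells and 150 and 105 FPKM in siSFPQ cells. In bulk RNA, fewer cells in mitosis and less of each RNA per cell cannot be told apart. HMMR, a spindle-associated protein, stood at 37.9 and 34.5 FPKM in the siCTL libraries and 5.21 and 4.51 FPKM in the siSFPQ libraries, a change of -2.67 (SE 0.07, adjusted p = 1.19e-05). TPX2, which activates Aurora A on the spindle, went from 166 and 161 FPKM to 33.3 and 29.04 FPKM, a change of -2.36 (SE 0.06). TOP2A, which untangles DNA, went from 141 and 124 FPKM to 40.03 and 32.04 FPKM, a change of -1.85 (SE 0.06). The siRNA groups did not overlap for any of the 3, and the library with TGF-beta was the lower one of each pair. CENPE, a kinetochore motor, and CENPF, a kinetochore protein, fell by 1.86 and 1.85. The proliferation marker MKI67 fell by 1.02 and the mitotic kinase gene CDK1 by 0.99. The list median of -0.99 lay inside the range of the other lines, -1.74 to 0.03.

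Start-site sequences of these falling G2/M genes are shown because the list shares letters there. A pair of motifs known from cell cycle promoters were searched on both strands in RefSeq windows of 300 bases around annotated starts (GRCh38.p14): the CHR element (TTTGAA or TTCGAA) and the CCAAT box (CCAAT). Windows were found for 30 of the 36 fallen genes, 41 windows in all. The CHR letters were in 63.4% of them and CCAAT in 70.7%. Nearly all of the G2/M list fell, so these shares describe that list and say nothing about the knockdown. Over all 11929 windows of genes tested in SK-HEP1 the shares were 11.5% and 35%, over windows of all 3246 fallen genes 14% and 37%, and over all 35116 windows of RefSeq 16.4% and 34.6%. The 4 genes with the deepest falls among those with a single window follow, with both motifs in capitals. Genes on 1 chromosome were left out of this choice. Matches that overlap their own reverse complement were counted separately, and no CHR match overlapped a CCAAT match.
HMMR (chr5:163460382-163460681, plus strand): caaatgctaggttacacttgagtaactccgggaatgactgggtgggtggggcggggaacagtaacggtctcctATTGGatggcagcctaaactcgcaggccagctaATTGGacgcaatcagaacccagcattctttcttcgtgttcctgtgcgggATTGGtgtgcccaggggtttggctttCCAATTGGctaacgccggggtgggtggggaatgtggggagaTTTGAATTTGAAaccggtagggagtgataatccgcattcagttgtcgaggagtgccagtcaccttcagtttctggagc
CENPE (chr4:103198294-103198593, minus strand): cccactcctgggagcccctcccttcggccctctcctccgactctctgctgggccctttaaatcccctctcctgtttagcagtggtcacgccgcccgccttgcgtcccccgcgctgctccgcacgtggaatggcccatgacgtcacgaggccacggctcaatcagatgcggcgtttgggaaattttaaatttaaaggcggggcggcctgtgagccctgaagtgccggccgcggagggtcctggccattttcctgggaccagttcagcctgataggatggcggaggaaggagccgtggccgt
TOP2A (chr17:40417847-40418146, minus strand): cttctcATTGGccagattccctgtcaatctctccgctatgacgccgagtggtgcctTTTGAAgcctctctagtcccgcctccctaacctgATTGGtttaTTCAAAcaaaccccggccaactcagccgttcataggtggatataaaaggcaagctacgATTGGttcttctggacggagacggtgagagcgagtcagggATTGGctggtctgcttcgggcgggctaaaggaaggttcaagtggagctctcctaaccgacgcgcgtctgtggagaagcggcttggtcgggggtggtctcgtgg
CENPF (chr1:214602945-214603244, plus strand): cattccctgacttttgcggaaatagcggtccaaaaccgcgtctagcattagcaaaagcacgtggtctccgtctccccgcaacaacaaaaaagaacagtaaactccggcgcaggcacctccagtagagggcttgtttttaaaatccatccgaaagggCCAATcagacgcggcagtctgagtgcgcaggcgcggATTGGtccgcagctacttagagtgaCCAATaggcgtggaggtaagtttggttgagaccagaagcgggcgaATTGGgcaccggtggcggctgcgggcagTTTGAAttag
HMMR held 2 CHR and 5 CCAAT matches, TOP2A 2 and 4, and CENPF 1 and 4. CENPE, which fell by 1.86, held neither. A match is a description of the letters and not a measured binding site.

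Replication genes followed in part. Of 39 tested G1/S genes, 27 fell and 4 rose, with a median of -0.61. CCND1, cyclin D1, fell most, from 256 and 347 FPKM to 62.8 and 73.2 FPKM, a change of -2.12 (SE 0.07, adjusted p = 1.39e-05). CCNE1, cyclin E1, which acts after cyclin D1 in G1, went the other way and rose from 14.8 and 18.8 FPKM to 43.5 and 50.1 FPKM, a change of 1.43 (SE 0.07). The transcription factor gene E2F2, the polymerase gene POLA1, the replication factor gene MCM10 and CCNA2, cyclin A2, fell by 1.48, 1.23, 1.25 and 1.13. Of 35 genes of homologous recombination and the Fanconi pathway, 22 fell and 1 rose, RPA1. As deposited, without the other scalings, 31 were lower. FANCD2, which is ubiquitinated at stalled forks, went from 17.8 and 14.6 FPKM to 3.77 and 2.72 FPKM, and FANCC, a core complex subunit, from 8.94 and 8.10 FPKM to 1.505 and 1.05 FPKM. Their changes were -2.02 (SE 0.08) and -2.07 (SE 0.10).

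Inhibitors of the cell cycle did not move as a group. Of 13 tested genes of the cytostatic program, 6 rose and 6 fell. CDKN2B, which encodes p15, rose from 2.00 and 3.17 FPKM to 4.79 and 6.19 FPKM, a change of 0.87 (SE 0.10). CDKN1A, which encodes p21, stood at 26.8 and 28.5 FPKM in siCTL cells and 32.8 and 37.2 FPKM in siSFPQ cells, a small rise of 0.33 (SE 0.06). MYC rose by 1.10, and CDKN2C, which encodes p18, and RB1 fell by 1.14 and 1.25. Of 23 p53 targets, 9 rose and 2 fell. BBC3, which encodes the pro-apoptotic PUMA, rose by 1.58 and the death receptor gene TNFRSF10B by 0.87, while RRM2B, a ribonucleotide reductase subunit, fell by 1.97. Of 7 BMP target genes, 4 rose and none fell. ID3, an inhibitor of basic helix-loop-helix factors, stood at 57.9 and 49.9 FPKM in siCTL cells and 216 and 193 FPKM in siSFPQ cells, a change of 1.91 (SE 0.05).

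Among the rises with knockdown, MARCKSL1 led. The gene encodes an actin- and calmodulin-binding protein and stood at 11.7 and 18.6 FPKM in siCTL cells, and 76.2 and 166 FPKM in siSFPQ cells, a change of 2.85 (SE 0.13, adjusted p = 7.12e-05). The siSFPQ values were higher in both pairs, and within each siRNA the library with TGF-beta was the higher one. MKNK2, a kinase of the translation factor eIF4E, went from 23.9 and 18.8 FPKM to 182 and 135 FPKM, a change of 2.83 (SE 0.06). FOXP4, a forkhead transcription factor, went from 5.73 and 6.52 FPKM to 40.2 and 45.2 FPKM, a change of 2.62 (SE 0.07). ADAM19, a membrane metalloprotease, rose by 2.55, the BMP antagonist gene NBL1 by 2.46, the TBK1-binding adaptor gene TBKBP1 by 2.43, the actin-binding drebrin gene DBN1 by 2.37, the opioid growth factor receptor gene OGFR by 2.29 and the adhesion protein gene MXRA8 by 2.19. KRT81 rose by 2.27 as listed, but it is a hair keratin with near-identical relatives whose reads may be shared.

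Genes of the actin skeleton and of adhesion were mostly on the rising side. Of 24 tested actin and focal adhesion genes, 14 rose and 3 fell, against 22.2% rises and 28.4% falls over all genes. FLNC, filamin C, rose by 1.75 and TES, a focal adhesion protein, by 1.18, while LIMS1 fell by 1.40. Of 30 extracellular matrix genes, 15 rose and 3 fell, among them the collagen genes COL6A1 (1.34) and COL5A2 (0.99). Of 12 epithelial genes, 7 rose and none fell: MUC1 rose by 1.35, the plakoglobin gene JUP by 1.06 and the keratin gene KRT8 by 0.97. Of 21 mesenchymal genes, 10 rose and 4 fell, so both lists held more rises than falls. Among 30 YAP and TEAD genes 13 rose and 6 fell: LATS2, a kinase that restrains YAP, rose by 1.74 and the matricellular gene CTGF by 1.25.

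Many NF-kB and early response genes rose as well. Of 25 NF-kB genes, 14 rose and 3 fell. TNF was at 0.818 and 0.412 FPKM in siCTL cells and 7.19 and 6.10 FPKM in siSFPQ cells, the adhesion receptor gene ICAM1 rose by 1.92, the cytokine gene CSF1 by 1.65, and NFKBIA, an inhibitor of NF-kB, by 1.11. Of 27 AP-1, immediate early and MAPK phosphatase genes, 14 rose and 3 fell. DUSP1, a MAPK phosphatase, went from 97.3 and 96.7 FPKM to 408 and 429 FPKM, with no overlap between the siRNAs. EGR1, an immediate early transcription factor, fell by 2.05. Of 28 interferon-stimulated genes, 11 fell and 2 rose, against 28.4% falls and 22.2% rises over all genes, and 15 were lower as deposited. PSMB8, an immunoproteasome subunit, went from 36.3 and 27.3 FPKM to 12.7 and 7.81 FPKM, a change of -1.56 (SE 0.08).

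Metabolic and stress lists held both rises and falls. Of 31 glycolysis and hypoxia genes, 17 rose and 3 fell, with rises of 0.78 for PGAM1 and 0.54 for ALDOA, both enzymes of glycolysis, and a fall of 0.86 for VEGFA. Of 29 cholesterol synthesis genes, 3 rose and 8 fell, and 17 were lower as deposited. Of 31 genes of the integrated stress and unfolded protein responses, 5 rose and 10 fell. The shares of falls in the cholesterol and stress lists are near the 28.4% over all genes. XBP1, a transcription factor of the unfolded protein response, went from 37.7 and 39.3 FPKM to 5.85 and 7.55 FPKM, a change of -2.37 (SE 0.09), and PHGDH, of serine synthesis, fell by 2.03. Of 29 genes of paraspeckles and their proteins, 7 rose and 5 fell, SFPQ included. NEAT1, the RNA scaffold of paraspeckles, rose from 133 and 124 FPKM to 258 and 248 FPKM, while TAF15 and EWSR1, which encode RNA-binding proteins, fell by 1.72 and 1.38.

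**Figure D2:**
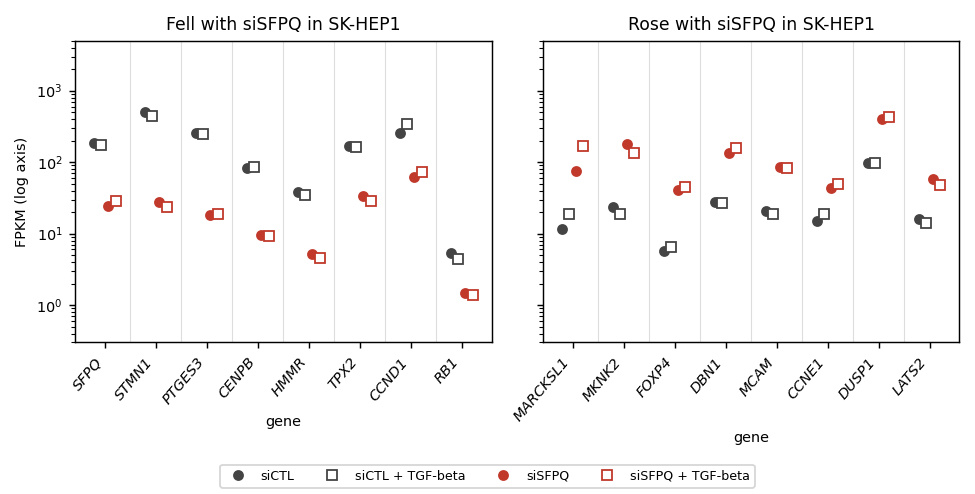
FPKM on a log axis in the 4 SK-HEP1 libraries, for 8 genes that fell (left) and 8 that rose (right) with siSFPQ. Grey symbols are siCTL and red symbols siSFPQ, filled without and open with TGF-beta, and each symbol is 1 library. The grey and red symbols of a gene do not overlap: STMN1 stood at 445 to 504 FPKM in siCTL and 23.9 to 27.9 FPKM in siSFPQ.

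Long genes were lower after knockdown than short ones. Gene spans were taken from annotation of another build and matched by symbol for 97.7% of the 9567 genes expressed in all lines. The median change without and with TGF-beta was -0.08 and -0.09 for 1933 genes spanning under 10 kb, -0.14 and -0.17 for 10 to 50 kb, -0.19 and -0.19 for 50 to 100 kb, and -0.32 and -0.29 for 1448 genes of 100 kb or more. In HLE the longest class had medians of -0.40 and -0.31, and its shortest class 0.07 and -0.08. The order was not shared by all lines: in Huh1 the longest class had medians of -0.03 and -0.01 against -0.05 and -0.15 for the shortest, and in HepG2 -0.02 and -0.08 against -0.09 and -0.11. GC content moved with the change too: genes under 40% GC had medians of -0.27 and -0.28, and those of 60% or more 0.00 and 0.04. Its part in the difference by span was not tested.

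The knockdown in SK-HEP1 was then set against the other lines. Of 9567 genes expressed in all lines, both SK-HEP1 pairs lay above all 10 pairs of the other lines for 607 genes (6.34%) and below all of them for 1656 genes (17.3%). In a fit of all 24 libraries the knockdown change of SK-HEP1 differed from the mean of the other 5 lines upward for 1405 of 10747 genes (13.1%) and downward for 3168 (29.5%). Under all 3 scalings it was 1398 (13.0%) and 1935 (18.0%). The error here is the spread within lines. When the spread between the other lines was taken as the error, none of the 10747 passed in limma. An unadjusted p under 0.05 was found for 1497, where 537 would be expected by chance. The differences therefore describe SK-HEP1 beside these 5 lines and are not shown to exceed what 1 more line would differ by. Leaving out SK-HEP1 siSFPQ, siCTL, siSFPQ with TGF-beta or siCTL with TGF-beta lowered the total of 4573 to 2085, 2088, 2315 and 2319.

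Among the genes outside the range of the other lines, MARCKSL1 had the largest positive difference, 2.37 (SE 0.07, adjusted p = 3.84e-08). Its change was 2.85 in SK-HEP1, 1.39 in HLE and 0.08 to 0.35 in the other 4 lines. SK-HEP1 and HLE had the least of it in siCTL cells, 11.7 and 18.8 FPKM, against 96.1 to 271 FPKM elsewhere. The melanoma adhesion molecule gene MCAM, also a marker of endothelium, rose from 20.6 and 18.8 FPKM to 84.4 and 84.1 FPKM in SK-HEP1, a change of 2.04 against 1.31 in Huh1, 0.74 in HLE and -0.35 to -0.01 in the other 3 lines. CCNE1, whose change was 1.43 in SK-HEP1, changed by -1.11 in HLE and by -0.20 to 0.34 elsewhere, from similar siCTL levels of 11.3 to 16.2 FPKM. It is thus a gene for which SK-HEP1 and HLE went opposite ways. IFFO2, HIP1R, a clathrin adaptor, CRABP2, a retinoic acid carrier, UNC13D, a factor of granule exocytosis, and AGFG2 had differences of 1.59 to 1.77.

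STMN1 had the largest negative difference, -2.45 (SE 0.08, adjusted p = 3.84e-08). It changed by -2.87 in HLE and by -1.75 to -0.95 in the other 4 lines, so it was lower in all lines and lowest in SK-HEP1. EGR1 differed by -2.27: it changed by -2.05 in SK-HEP1, 1.41 in HepG2 and -0.45 to 0.46 elsewhere. VAV3, a guanine nucleotide exchange factor, stood at 34.2 and 37.5 FPKM in SK-HEP1 siCTL cells and 5.16 and 5.201 FPKM with siSFPQ, a difference of -2.19. Its siCTL level was 0.0353 to 6.19 FPKM in the other lines, so they had less of it to lose. SMTN, an actin-binding protein of contractile cells, and AKAP12, a scaffold for protein kinase A, differed by -2.01 and -1.94. SLC9A3R2, a scaffold under the plasma membrane, differed by -2.01, MUTED, of lysosome-related organelles, by -2.42 and KIAA0754 by -1.94.

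Among the gene groups, 18 of 37 G2/M genes differed downward and none upward, against 29.5% and 13.1% of all genes. Of 39 G1/S genes 10 differed upward and 5 downward, and of 31 glycolysis and hypoxia genes 14 and 3. Over genes expressed in all lines, 5 list medians for the knockdown lay outside the range of the other lines by more than 0.1. The interferon list was at -0.45 against -0.27 to 0.14, the apoptosis list at -0.24 against 0.04 to 0.24, the NRF2 target list at 0.07 against -0.23 to -0.08, the list of matrix proteases and inhibitors at 0.19 against 0.30 to 0.44, and the endothelial list, with 2 genes, at 0.73 against -0.35 to 0.57. These medians include the shift of all genes, which was -0.16 and -0.17 in the SK-HEP1 pairs without and with TGF-beta, and single members of a list are not replicates.

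TGF-beta moved few genes in SK-HEP1. Of 11428 genes, 215 were higher (1.88%) and 231 lower (2.02%), and under all 3 scalings 213 rose (1.86%) and 136 fell (1.19%). The shares under all 3 scalings are the background for the TGF-beta rises and falls of the gene groups below. When low genes were not filtered, 1 gene passed in limma, and 2670 had an unadjusted p under 0.05, where 825 would be expected by chance. In the fit of all 24 libraries, which takes its error from all lines and holds 1 siRNA by TGF-beta term common to them, 595 passed with all SK-HEP1 libraries, 46 without either siSFPQ library and 94 without either siCTL library. At least 1 on the log2 scale in both pairs was reached upward by 26 genes (0.228%) and downward by 10 (0.0875%). The share passing, 3.90%, was 0.943% in Hep3b and 5.87% to 12.3% in the other 4 lines.

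Many known targets of TGF-beta rose in SK-HEP1. Of 32 tested members of the target list, 17 rose and none fell, with a median of 0.74 against -0.04 over all genes. PMEPA1, a feedback inhibitor of SMAD signalling, was at 7.91 FPKM without and 37.6 FPKM with TGF-beta in siCTL cells, and at 3.13 and 28.9 FPKM in siSFPQ cells, a change of 2.49 (SE 0.19, adjusted p = 0.014). COL1A1, the alpha 1 chain of type I collagen, went from 7.04 to 43.5 FPKM in siCTL cells and from 12.9 to 74.9 FPKM in siSFPQ cells, a change of 2.46 (SE 0.06, adjusted p = 1.71e-04). SNAI1, a repressor of epithelial genes, went from 14.2 to 44.8 FPKM and from 21.1 to 120 FPKM, a change of 2.02 (SE 0.23). In all 3 the treated libraries were above both untreated ones. SMAD7, the inhibitory SMAD, rose from 29.7 to 48.3 FPKM and from 20.4 to 42.6 FPKM, a change of 0.85 (SE 0.09). JUNB, an AP-1 subunit, rose by 1.10, TGFBI, a matrix protein, by 1.05, the insulin-like growth factor binder gene IGFBP3 by 1.01 and the SMAD corepressor gene SKIL by 0.84. With SFPQ knockdown the same list was mixed: 13 of the 32 rose and 7 fell, among the latter IGFBP3 (-1.44).

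Other large rises were of ANGPTL4, a lipase inhibitor, with 35.5 to 98.6 FPKM in siCTL cells and 109 to 423 FPKM in siSFPQ cells (change 1.70), of the autophagy kinase gene ULK1 (1.65), of ADAM19 (1.57), of the collagen gene COL5A1 (1.57) and of FSTL3, which binds activin (1.51). ANGPTL4, ULK1 and ADAM19 also rose with knockdown, by 1.84, 1.88 and 2.55, so the siSFPQ library with TGF-beta was the highest of the 4 for each. CGB8, of chorionic gonadotropin, and the neurotrophin gene NTF4 rose by 1.70 and 1.66. Their starts lie 15.7 kb apart on chromosome 19, and CGB8 has near-identical copies, so reads may be split among them and both values are uncertain.

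SMAD complexes are known to bind CAGAC, and AP-1 TGANTCA. Among 245 RefSeq windows of the 213 rising genes (162 genes with a window) CAGAC stood in 51.4% and TGANTCA in 7.35%, counting both strands. Over windows of all genes tested the shares were 43.4% and 4.96%, and over those of the falling genes 45.5% and 6.9%. The 4 members of the target list with the largest rises and a single window were then taken, again without genes on 1 chromosome. Of these, ANGPTL4 and ADAM19 held CAGAC 1 time each and JUNB and TGFBI held none. None of the 4 held TGANTCA, so no overlap arose. The windows that held CAGAC are shown, with it in capitals.
ANGPTL4 (chr19:8363905-8364204, plus strand): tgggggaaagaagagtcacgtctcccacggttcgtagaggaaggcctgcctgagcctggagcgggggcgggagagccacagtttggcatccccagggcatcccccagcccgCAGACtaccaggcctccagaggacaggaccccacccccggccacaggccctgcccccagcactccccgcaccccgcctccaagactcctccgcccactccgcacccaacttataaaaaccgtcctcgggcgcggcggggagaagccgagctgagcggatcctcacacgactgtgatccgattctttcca
ADAM19 (chr5:157575726-157576025, minus strand): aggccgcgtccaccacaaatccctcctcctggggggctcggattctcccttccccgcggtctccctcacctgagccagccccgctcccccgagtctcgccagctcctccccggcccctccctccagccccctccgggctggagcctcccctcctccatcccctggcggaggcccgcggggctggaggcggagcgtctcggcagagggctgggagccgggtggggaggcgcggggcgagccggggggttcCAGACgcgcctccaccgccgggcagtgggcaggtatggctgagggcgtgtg
The letters in these windows were common in all genes, and no binding was measured.

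Some matrix and adhesion genes rose beside the classic targets. Most members of these lists did not rise, but over all genes only 1.86% rose and 1.19% fell with TGF-beta. Of 30 extracellular matrix genes, 6 rose and 1 fell: COL1A1, COL5A1, COL5A2 (0.62), SPARC (0.78), LARP6 (0.62) and P4HA1 (0.36) rose, and TNC, tenascin C, fell by 0.36. Of 21 mesenchymal genes, 9 rose and none fell, with VIM at 1984 to 2375 FPKM in siCTL cells and 2036 to 2646 FPKM in siSFPQ cells, a change of 0.32. Of 10 integrin subunits, 4 rose, among them ITGAV (0.74) and ITGA5 (0.73). Of 24 actin and focal adhesion genes, 4 rose and none fell. Of 22 receptors, SMADs and feedback genes, 3 rose (PMEPA1, SMAD7 and SKIL) and SMAD3 fell, from 99.9 to 76.8 FPKM and from 124 to 88.8 FPKM. Of 12 ligands and latency proteins, 3 rose (TGFB2, LTBP3 and FSTL3) and none fell. SMAD4, the shared SMAD, was at 7.80 and 7.55 FPKM in siCTL cells and 8.14 and 8.75 FPKM in siSFPQ cells, with changes of 0.12 (SE 0.08) for the knockdown and 0.03 (SE 0.08) for TGF-beta that did not pass as deposited. Scaled to a common median ratio or without the GC trend, its knockdown change was 0.33 and 0.45 and passed.

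Cell cycle inhibitors gave little response to TGF-beta. Of 13 genes of the cytostatic program, GADD45B rose by 0.78 and none fell. CDKN2B was at 2.00 and 3.17 FPKM in siCTL cells and 4.79 and 6.19 FPKM in siSFPQ cells, a change of 0.39 (SE 0.10, adjusted p = 0.0845), and CDKN1A changed by 0.13 (SE 0.06, adjusted p = 0.304). MYC, which TGF-beta is known to repress in epithelial cells, changed by 0.09 (SE 0.06, adjusted p = 0.452). No G1/S gene passed of 39, and of 37 G2/M genes none passed under all scalings. Among the BMP targets the ID genes stood lower with TGF-beta in both pairs: ID4 fell by 0.83, and ID1, ID2 and ID3 changed by -0.21, -0.68 and -0.19 and did not pass.

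Falls with TGF-beta, 1.19% of all genes, included epithelial and inflammatory genes. GLUL, glutamine synthetase, was at 60.9 FPKM without and 24.7 FPKM with TGF-beta in siCTL cells and at 56.0 and 16.6 FPKM in siSFPQ cells, a change of -1.48 (SE 0.11, adjusted p = 0.0076). The epithelial genes ELF3, CLDN1 and JUP, an ETS factor, a tight junction claudin and plakoglobin, fell by 1.24, 1.16 and 1.12, and they were 3 falls among 12 epithelial genes tested with no rise. JUP stood at 44.8 and 22.1 FPKM in siCTL cells and 104 and 43.0 FPKM in siSFPQ cells, and its treated siSFPQ library was close to its untreated siCTL one. SDPR, a protein of caveolae, fell by 1.33, the transcription factor gene TCF21 by 1.16, and ANKRD33B and DBNDD2 by 1.20 each. PTX3, a secreted pentraxin, fell by 1.18 and the chemokine gene CX3CL1 by 1.09. Of 25 NF-kB genes, 6 fell and none rose: VCAM1, CSF1, IL8, CXCL2, CCL2 and NFKBIA fell by 1.15, 1.02, 0.81, 0.68, 0.49 and 0.40. Of 28 interferon-stimulated genes, 4 fell, among them UBE2L6 (from 22.4 to 14.7 FPKM and from 15.1 to 7.62 FPKM) and IFITM2. The NRF2 targets TXNRD1 and ABCC2 fell by 0.66 and 0.81, 2 of 19.

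**Figure D3:**
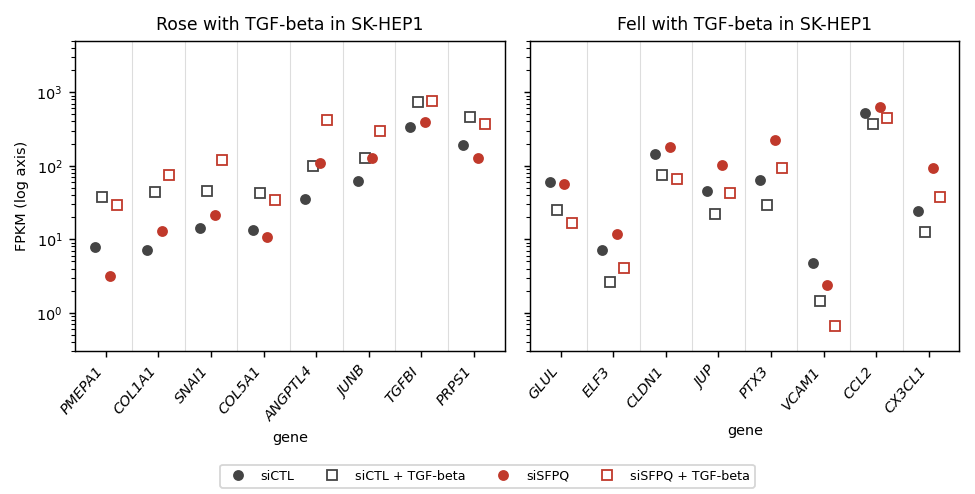
FPKM on a log axis in the 4 SK-HEP1 libraries, for 8 genes that rose (left) and 8 that fell (right) with TGF-beta. Grey symbols are siCTL and red symbols siSFPQ, filled without and open with TGF-beta, and each symbol is 1 library. COL1A1 moved alike in both siRNAs, from 7.04 to 43.5 FPKM and from 12.9 to 74.9 FPKM, while JUP fell in both but from different levels, 44.8 and 104 FPKM.

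The TGF-beta response of SK-HEP1 differed from the mean of the other 5 lines upward for 42 of 10747 genes (0.391%) and downward for 138 (1.28%), and under all 3 scalings for 41 (0.382%) and 132 (1.23%). The total of 180 was 1 with the spread between the other lines as the error. At an unadjusted p under 0.05 it was 336 there, fewer than the 537 expected by chance. The total was 3 without either SK-HEP1 siSFPQ library and 19 without either siCTL library. Without HepG2, Huh1, Hep3b, Huh7 and HLE it was 68, 118, 220, 221 and 473. It thus varied with the libraries and lines included, and the cause was not tested. Both pairs lay above all 10 others for 207 of 9567 genes (2.16%) and below them for 280 (2.93%).

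PRPS1, which makes the ribose precursor of nucleotides, had the largest positive difference. It went from 189 to 456 FPKM in siCTL cells and from 127 to 366 FPKM in siSFPQ cells, a change of 1.39 (SE 0.07), against -0.36 to 0.21 in the other lines (difference 1.46, SE 0.16, adjusted p = 0.00299). FIBCD1, a membrane lectin, changed by 1.71 against at most 0.67, from low levels of 0.897 and 0.578 FPKM. ARFGAP1, which switches off the GTPase ARF1, went from 80.9 to 141 FPKM and from 62.7 to 114 FPKM, a difference of 0.73. FTL, ferritin light chain, and SCD, a fatty acid desaturase, changed by 0.35 and 0.44 and did not pass in SK-HEP1 by itself. Their differences of 0.83 and 0.59 come with lower values under TGF-beta in the other lines, -0.82 to -0.21 for FTL and -0.27 to -0.03 for SCD. SLC25A33, a mitochondrial carrier, differed by 0.60. HSP90AA6P, a pseudogene, and HIST1H3H, one of many near-identical histone genes, differed by 1.11 and 1.00 and are uncertain, since their reads may come from relatives.

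Negative differences fell into 2 kinds. JUP, GLUL, DBNDD2 and A4GALT, a glycolipid synthase, fell in SK-HEP1 and had differences of -1.28, -1.25, -1.25 and -1.28 (JUP SE 0.08, adjusted p = 1.75e-04). JUP changed by 0.97 in Huh1 and by -0.24 to 0.24 in the other 4 lines, and GLUL by -0.69 in HepG2 and -0.28 to 0.04 in the other 4. KRT7 and KRT81, keratins, TGM2, a transglutaminase, and ENC1, an actin-binding protein, changed by -0.38 to -0.32 in SK-HEP1 and did not fall under all scalings. Higher levels with TGF-beta were seen for them elsewhere: KRT7 by 0.08 in Huh7 and 0.64 to 1.77 in the other 4 lines, and TGM2 by 0.19 in HLE and 0.66 to 1.55 in the other 4. Their differences were -1.28, -1.52, -1.18 and -1.15 in the order named.

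**Figure D4:**
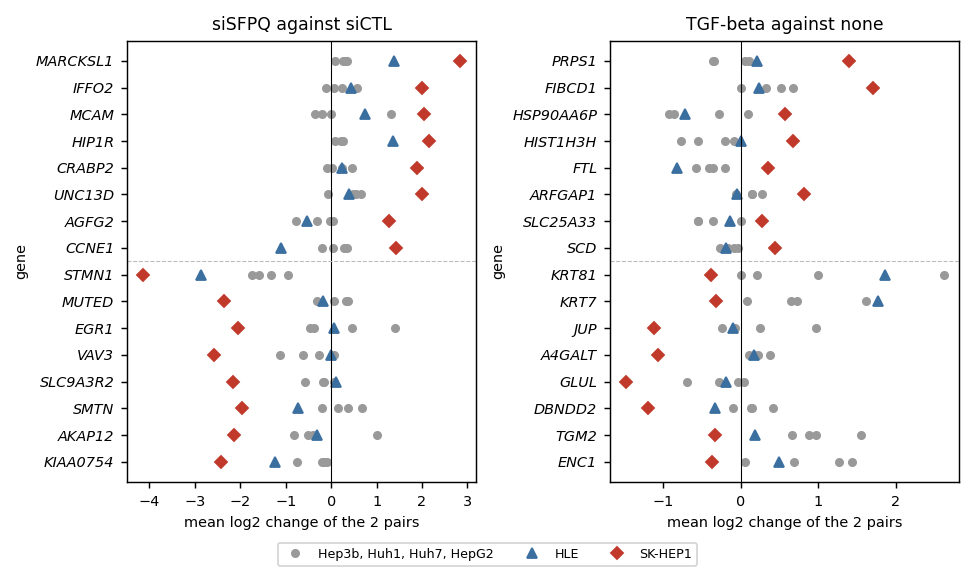
Mean log2 change of the 2 pairs in each cell line, for the 16 genes named for the knockdown (left) and the 16 named for TGF-beta (right), with SK-HEP1 as red diamonds, HLE as blue triangles and the other 4 lines as grey circles. The dashed line parts positive from negative differences. SK-HEP1 lies at the end of each row because only genes with both its pairs outside the range of the other lines were chosen. It is at 2.85 for MARCKSL1 and -4.14 for STMN1, and HLE is the nearest line for both.

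**Figure D5:**
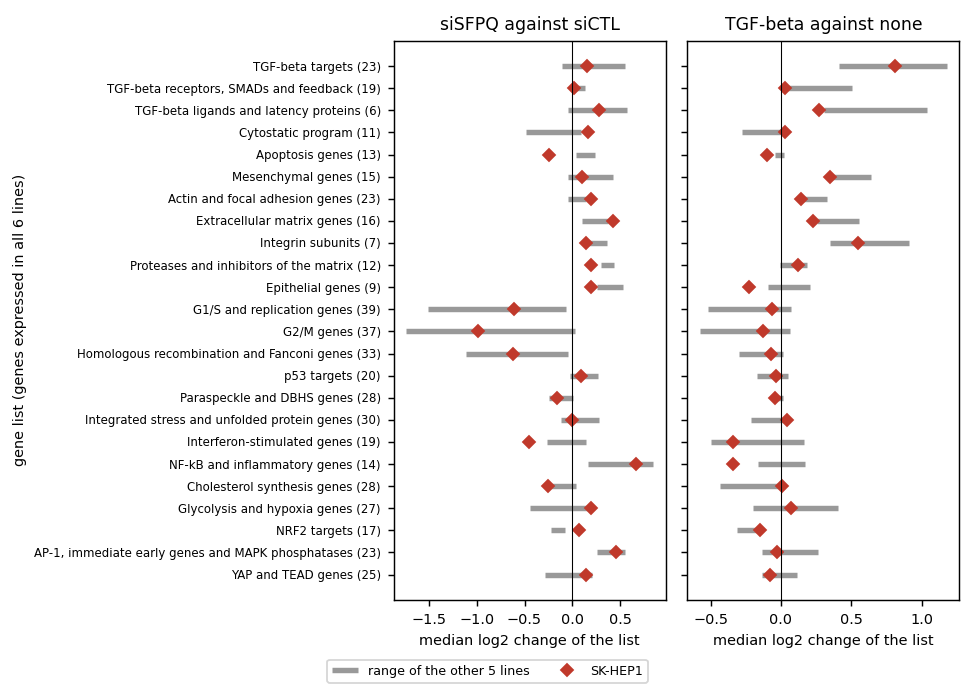
Median log2 change of each gene list over genes expressed in all 6 lines, for the knockdown (left) and TGF-beta (right): red diamonds are SK-HEP1 and grey bars the range of the other 5 lines, with the number of genes in brackets. SK-HEP1 lies inside or at the edge of the grey bar for most lists, including G2/M genes at -0.99. With knockdown it lies more than 0.1 below the bar for interferon-stimulated genes (-0.45), apoptosis genes (-0.24) and matrix proteases and inhibitors (0.19). It lies more than 0.1 above the bar for NRF2 targets (0.07). With TGF-beta it lies more than 0.1 below the bar for epithelial and NF-kB genes (-0.22 and -0.34).

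With TGF-beta the target list had a median of 0.81 over genes expressed in all lines, inside the range of the other lines, 0.41 to 1.18. The epithelial list was at -0.22 (9 genes) against -0.09 to 0.21, and the NF-kB list at -0.34 (14 genes) against -0.16 to 0.17. For those lists all 5 other lines had a higher median than SK-HEP1. The cell cycle lists were inside: G2/M genes at -0.13 against -0.58 to 0.07.

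Whether SFPQ knockdown altered the TGF-beta response can be described but not tested inside SK-HEP1, where it is 1 value per gene. The median response of the target list was 0.67 in siCTL and 0.82 in siSFPQ cells. Among well-expressed genes, the signed log2 response was higher in siSFPQ cells by 1.49 for OLFM2, 1.15 for TMEM160, 1.03 for the kinase gene TNK2 and 1.01 for LMCD1. LMCD1, a transcriptional cofactor, went from 10.5 to 19.6 FPKM in siCTL cells and from 22.6 to 84.7 FPKM in siSFPQ cells. The signed response was lower in siSFPQ cells by 1.00 for SAA1, an acute phase protein, and by 0.92 for the chemokine gene CXCL3. SAA1 went from 13.3 to 5.82 FPKM in siCTL cells and from 11.5 to 1.98 FPKM in siSFPQ cells, a deeper fall. RPL21, a ribosomal protein gene with many copies, was listed at 0.0172 FPKM in the treated siSFPQ library and 18.2 to 70.6 FPKM in the other 3, and since every cell uses it, this value is uncertain. Set against the other 5 lines, with 1 value per line, no gene of 10747 passed in limma. An unadjusted p under 0.05 was found for 252, fewer than the 537 expected by chance.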

How the data were processed

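Polyadenylated RNA of 6 human cell lines was sequenced in 24 libraries, 1 per line and condition. The deposited table holds FPKM values made by the authors, with TopHat2 2.1.1, Cufflinks 2.2.1 and build hg19 named in the submitters' processing notes. It is named as raw counts but holds FPKM, so no count model was used; the annotation and the tools' options were not given in the sources used here. Among its 23284 rows, 1627 name short RNAs and were set aside, since their FPKM are extreme. Its 2 empty columns were not used. Depth is known only as a ratio between libraries, so no counting interval was given.

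Values were analysed as log2(FPKM + 1) in R 4.3.3. Genes with 1 FPKM or more in at least 2 SK-HEP1 libraries, 11428, were tested with limma 3.58.1 and Benjamini-Hochberg adjustment. The 4-library fit had terms for siRNA and TGF-beta and 1 residual degree of freedom, and limma added a prior of 5.13. Differences from the other lines came from all 24 libraries with a level, a knockdown and a TGF-beta term per line and 1 siRNA by TGF-beta term common to all lines, 5 residual degrees of freedom, and 10747 genes. This error is the spread within lines, and lines are not replicates in it.

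Alternatives were a pseudocount of 0.1, no filter, a filter of 5 FPKM, scaling to a common median ratio, the 24-library fit, the spread between lines as error, and, in the 24-library fit only, leaving out each library or line. Removal of each library's trend with GC content was added after the data were seen. GC content and gene span came from GENCODE 29 and RefSeq annotation of GRCh38, matched by symbol (97.3% and 97.7% of the 9567 genes expressed in all lines), for these properties only. Promoter windows were RefSeq's, GRCh38.p14. The fits were tested on simulated data before use.

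The members and gene lists were chosen with earlier results of these data known. Genes were named by rule: the 10 largest rises and falls of each comparison among well-expressed genes, and the 8 most positive and negative differences outside the range of the other lines. To these were added the 6 most positive and negative interactions, and SFPQ, SMAD4, SMAD7, CDKN1A and CDKN2B. From each list came up to 4 members by smallest p for the knockdown and up to 4 by smallest p for TGF-beta. Some genes that the rule names are not reported here. Other genes named for the lists, such as MKI67, CDK1, ICAM1, CSF1, IL8, COL6A1, FLNC, VIM and SPARC, were chosen after their values were seen.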

Additional observations from a re-analysis of the deposited data

Results flagged for a closer look

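Effects that differed between SK-HEP1 and the mean of the other 5 lines by limma's test of the difference, with the spread within lines as error, are listed here for a closer look. For the knockdown 4573 of 10747 genes differed and for TGF-beta 180, and with the spread between the other lines as error 0 and 1 did. The knockdown difference was 2.37 for MARCKSL1, 1.77 for IFFO2, 1.75 for MCAM, 1.73 for HIP1R, 1.72 for CRABP2, 1.60 for UNC13D, 1.59 for AGFG2 and 1.56 for CCNE1. It was -2.45 for STMN1, -2.42 for MUTED, -2.27 for EGR1, -2.19 for VAV3, -2.01 for SLC9A3R2, -2.01 for SMTN, -1.94 for AKAP12 and -1.94 for KIAA0754. The sizes for MUTED, EGR1, HIP1R, CRABP2 and UNC13D depend on the value added to FPKM, and that for MUTED also on the libraries included. The TGF-beta difference was 1.46 for PRPS1, 1.36 for FIBCD1, 1.11 for HSP90AA6P, 1.00 for HIST1H3H, 0.83 for FTL, 0.73 for ARFGAP1, 0.60 for SLC25A33 and 0.59 for SCD. It was -1.52 for KRT81, -1.28 for KRT7, -1.28 for JUP, -1.28 for A4GALT, -1.25 for GLUL, -1.25 for DBNDD2, -1.18 for TGM2 and -1.15 for ENC1. In 60 checks for a line far from the other 5, SK-HEP1 did not stand out. With 6 values per check only a line very far from the rest could stand out, so no conclusion is drawn from them.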

How the results depend on the processing

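The count of genes passing for the knockdown in SK-HEP1 was 7785, and 6197 to 7831 under the other settings with all 4 libraries. For TGF-beta 446 passed, 368 to 595 under the other settings except 1 without a filter on low values. Of the 595 genes, which passed in the fit of all 24 libraries, 328 were among the 446. The rise of SNAI1 did not pass in that fit. A library can be left out only in the fit of all 24 libraries, whose counts with every library were 7402 for the knockdown and 595 for TGF-beta; with 1 SK-HEP1 library left out they were 5157 to 5395 and 46 to 94. For the knockdown difference from the other lines 4573 passed, 3587 to 5005 under the other settings except 0 with the spread between the other 5 lines as error, and 2085 to 5233 with 1 library or line left out. For the TGF-beta difference 180 passed, 159 to 220 under the other settings except 1 with the spread between lines, and 3 to 473 with 1 library or line left out. Fewer libraries or lines leave fewer degrees of freedom, and the cause of the other changes was not tested. No gene passed for the interaction under any setting tried. Of 987 values of named genes under other settings, 832 stayed on the same side of the threshold, 153 no longer passed and 2 passed newly, both for SMAD4 with knockdown. The sign changed for 4 values, the TGF-beta responses of SFPQ and SMAD4 without either siSFPQ library, and neither response had passed. Depth limits low genes: the shallowest SK-HEP1 library had 0.663 of the median library's depth.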
